A study of Arabidopsis thaliana with 3 samples.

Results

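Transcripts of the mitochondrial genome were followed through 47 probe sets of an Affymetrix Arabidopsis array, out of 22810 probe sets in all. The rule takes them by probe set number, as 2 runs of consecutive numbers (244901_at to 244931_at and 244943_at to 244958_at, any suffix) that cover loci of that genome, and uses no measured value. The cells were labelled mature endodermis and came from wild type Arabidopsis thaliana (Columbia); 1 array was run for each of 3 biological replicates. Protoplasts were released from the root tips of seedlings 6 days old and sorted for green fluorescent protein (GFP), and their total RNA was amplified in the Affymetrix 2-cycle protocol. The series text names the GFP marker line as E30. All 3 arrays belong to 1 group, so no genotype, treatment or cell type is compared, and the labels do not say how seedlings were divided among the replicates. The p-values below therefore measure only the spread between these 3 samples.

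Plant mitochondria keep a genome of their own. It encodes part of the respiratory chain and of ATP synthase, factors of cytochrome c maturation, ribosomal proteins and RNAs, an intron maturase, and many open reading frames of unknown function. All other mitochondrial proteins are encoded in the nucleus and imported, so each respiratory complex with mitochondrial subunits is built from both genomes. Plant mitochondrial messengers mostly lack the stable poly(A) tail of nuclear messengers, and the 2-cycle protocol primes on such tails. A signal here is therefore no measure of how many transcripts a cell holds, and the part that priming played was not tested. In Columbia a large copy of the mitochondrial genome also lies in chromosome 2, and a probe set cannot tell the copies apart.

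The probe annotation paired 12 of the 47 probe sets with 1 mitochondrial gene each. These were 5 subunits of complex I (nad4, nad4L, nad6, nad7 and nad9), the complex IV subunit cox2, 4 cytochrome c maturation genes (ccb203, ccb206, ccb382 and ccb452), the maturase matR and the transporter gene orfX. The rule that fixed the probe sets adds ATMG00640, the ATP synthase gene atp4, for 244901_at, which makes 13 named genes. Of the other 34 probe sets, 1 was paired with both rps3 and rpl16, 4 with nuclear loci on chromosome 2 only, and 29 have no gene name here. For these 4 the annotation does not bear out the label of mitochondrial genome transcripts. Chromosome 2 holds a copy of that genome, and which genome their signal came from was not tested. The arrays' annotation names no genome build, so no coordinates are given.

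Values are linear signals. Depth has no counterpart on arrays, and the number of arrays limits the precision. The median signal over the plant probe sets (all but 64 control probe sets) was 55.1, 53.3 and 64.7 in replicates 1, 2 and 3. Each probe set was tested against a reference level, the 90th percentile of 27 control probe sets for Bacillus subtilis genes in the same array, a signal of 14.2, 13.1 and 12.3. A probe set is called above or below it at an adjusted p under 0.05 in limma's two-sided test over all 22746 plant probe sets. Of 31 marker loci listed for root cell types, only 4 could be matched to a probe set, so the label was hardly checked. GSO1, the receptor kinase needed for an intact Casparian strip, had signals of 3421, 5068 and 5823, above the reference level in every array. Neither of 2 cortex markers was called above the reference level. AT1G62500 had signals of 12.2, 28.7 and 10.6, above that level in replicate 2 only (adjusted p = 0.579 in limma's test). AT1G09750 had 12.3, 4.05 and 4.02 and was called below (adjusted p = 0.0347 in limma's test). EXPA7, a root hair expansin, had signals of 18.03, 71.5 and 192 and was called above (adjusted p = 0.0331 in limma's test), but not without replicate 2 or without replicate 3.

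As a set, the mitochondrial-genome probe sets sat in the middle of the array. Of the 47, 34 lay above the reference level, 2 below it and 11 in neither class, that is 72.3% above, against a background of 69.1% of all plant probe sets (11.1% below). Their median signal was 56.7, and that of all plant probe sets 56.7 as well. The median percentile, the share of plant probe sets with a lower mean level, was 50.0%. In single arrays the median percentile was 50.6%, 53.6% and 47.5%. Against the highest Bacillus probe set of each array 24 of the 47 lay above (51.2% of all plant probe sets), and against the 75th percentile 37 did (74.0% of all). The range was wide, with geometric means of 2.03 to 3152.

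**Figure D1:**
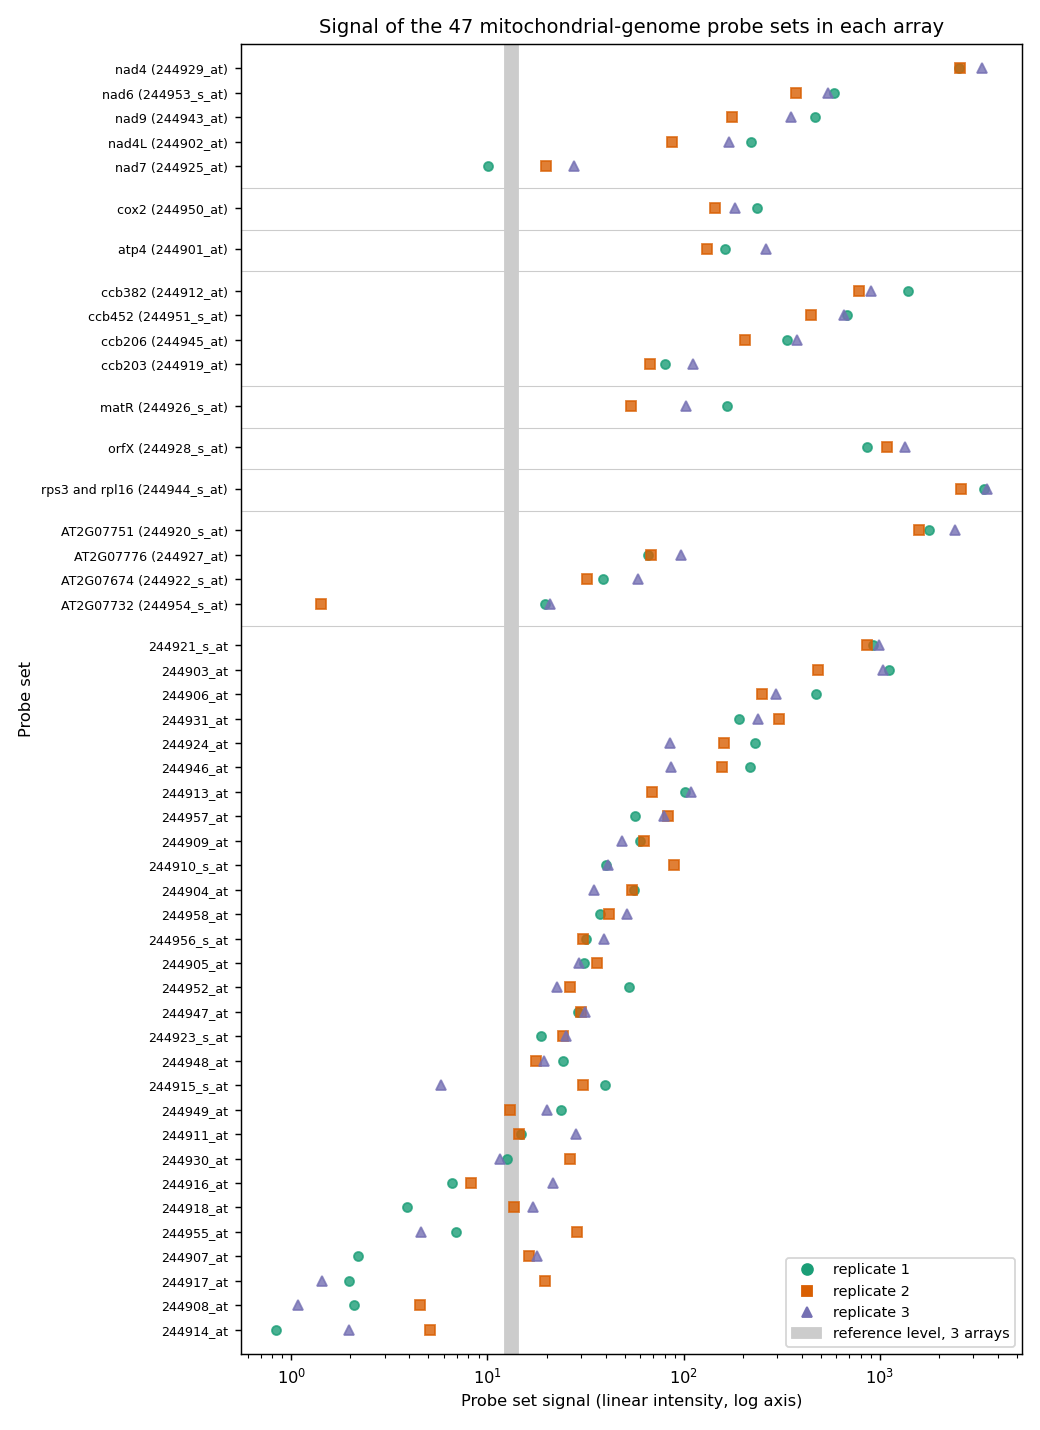
Signal (linear intensity, log axis) of each of the 47 probe sets in replicates 1, 2 and 3, grouped by role and ordered by mean level within a role. The grey band spans the reference levels of the 3 arrays. All named genes but nad7 lie to the right of the band in every array, while 13 of the 47 probe sets were not called above it.

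The middle position hides a split between the named genes and the rest. Of the 13 named genes 12 (92.3%) lay above the reference level, and of the other 34 probe sets 22 (64.7%) did. The share over all plant probe sets was 69.1%, near that of the other 34. The median percentile was 82.5% for the named genes and 37.7% for the others. In the arrays the median signal of the named genes was 338, 176 and 353, against 38.3, 31.4 and 33.1 for the other members. The named genes were thus 8.83-fold, 5.61-fold and 10.7-fold higher at the median, in the same direction in each array. Probe sets differ in response and are not replicates, so this is a description with no test.

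Complex I, the NADH dehydrogenase at the entry of the respiratory chain, is represented by 5 genes. Of these, 4 lay above the reference level, against 69.1% of all plant probe sets. The gene nad4 encodes a membrane subunit that takes part in proton pumping. It had signals of 2536, 2566 and 3343, which is 7.73 ± 0.24 (log2, SE) above the reference level (adjusted p = 3.56e-05 in limma's test). All 3 arrays placed it in the top few percent of plant probe sets, at percentiles of 98.0, 98.1 and 98.9. The membrane subunit gene nad6 had signals of 589, 375 and 545, with a log2 difference of 5.23 ± 0.24 (adjusted p = 4.82e-05 in limma's test).

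The gene nad9, which encodes a subunit of the peripheral arm, had signals of 466, 176 and 353. The log2 difference from the reference level was 4.54 ± 0.33 (SE, adjusted p = 0.000161 in limma's test). The small membrane subunit gene nad4L, next to atp4 in the numbering, had signals of 221, 87.8 and 170 (log2 difference 3.50 ± 0.32, SE, adjusted p = 0.000349 in limma's test). Both were lowest in replicate 2, and both spanned more than 2-fold between arrays (2.65-fold for nad9 and 2.52-fold for nad4L).

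The gene nad7 was the only named gene that did not pass. It encodes another subunit of the peripheral arm. Its signals were 10.05, 19.8 and 27.7, below the reference level in replicate 1 and above it in replicates 2 and 3. The log2 difference was 0.42 ± 0.38 (SE, adjusted p = 0.346 in limma's test). A low signal of 1 probe set does not show that a transcript is absent.

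Cytochrome c oxidase, complex IV, is the last enzyme of the chain, and cox2 encodes the subunit that takes electrons from cytochrome c. Its signals were 236, 145 and 183, or 188 ± 45.9 (SD, n = 3), well above the reference level in every array. The log2 difference was 3.81 ± 0.23 (SE, adjusted p = 9.91e-05 in limma's test). The ATP synthase gene atp4, which encodes part of the stalk that holds the catalytic head, had signals of 163, 132 and 263. The log2 difference was 3.76 ± 0.30 (SE, adjusted p = 0.000219 in limma's test), and replicate 3 was the highest.

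Like 69.1% of all plant probe sets, all 4 cytochrome c maturation genes lay above the reference level. Their products serve the attachment of haem to c-type cytochromes. The gene ccb382, which codes for the N-terminal part of a haem lyase component (CcmFN), had signals of 1388, 781 and 905. The gene ccb203, for a further piece of the same component, had 80.3, 67.5 and 111. The gene ccb452, for the C-terminal component (CcmFC), had 678, 446 and 656. The transporter subunit gene ccb206 (CcmB) had 338, 205 and 379. The log2 differences were 6.24 ± 0.25 for ccb382, 2.68 ± 0.26 for ccb203, 5.47 ± 0.24 for ccb452 and 4.50 ± 0.28 for ccb206 (SE), with adjusted p-values up to 0.000447 in limma's test. Each of the 4 was lowest in replicate 2.

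The maturase gene matR, whose product takes part in the splicing of mitochondrial introns, lies inside an intron of nad1. Its signals were 167, 54.0 and 103, a range of 3.10-fold, the widest of the 13 named genes. It lay above the reference level all the same, by 2.89 ± 0.35 (log2, SE, adjusted p = 0.00101 in limma's test). The gene orfX encodes a TatC-like membrane protein, the class that transports folded proteins. It had signals of 859, 1094 and 1352 and a log2 difference of 6.36 ± 0.26 (SE, adjusted p = 4.07e-05 in limma's test). Here replicate 1 was lowest and replicate 3 highest, unlike the order in most named genes.

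The brightest of the 47 was 244944_s_at, paired with both rps3 and rpl16, which encode ribosomal proteins of the small and the large subunit. Its signals were 3402, 2612 and 3525, and the log2 difference was 7.90 ± 0.23 (SE, adjusted p = 3.56e-05 in limma's test). It ranked 298 from the top of the 22746 plant probe sets. The signal cannot be divided between both genes.

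The 4 probe sets listed under nuclear loci of chromosome 2 ran across the whole range. AT2G07751 had signals of 1780, 1595 and 2411, at the 97.3 percentile by mean level. AT2G07776 had 65.7, 68.2 and 96.8, and AT2G07674 had 39.01, 32.1 and 58.5. These 3 were called above the reference level (adjusted p = 3.61e-05, 0.000503 and 0.00348 in limma's test). AT2G07732 had 19.6, 1.42 and 20.9 and was not called (adjusted p = 0.504 in limma's test). All 4 were highest in replicate 3, as were 43.0% of all plant probe sets.

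Among the 29 probe sets without a gene name, 18 lay above the reference level, 2 below and 9 in neither class. That is 62.1% above, near the background of 69.1%. The brightest, 244921_s_at, had signals of 924, 865 and 996, a range of 1.15-fold that was far narrower than that of most named genes. The lowest were 244914_at, with signals of 0.837, 5.11 and 1.96, and 244908_at, with 2.09, 4.55 and 1.08. Both were called below the reference level (adjusted p = 0.00718 and 0.00317 in limma's test).

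The largest spreads fell on dim probe sets. The SD over the arrays was 2.22 (log2) for 244954_s_at (AT2G07732), 2.06 for 244917_at and 1.71 for 244907_at. The signals of 244917_at were 1.98, 19.7 and 1.43, high in replicate 2 alone. Those of 244907_at were 2.19, 16.3 and 17.9, low in replicate 1 alone. Neither passed the test (adjusted p = 0.0917 and 0.459 in limma's test).

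A pair of unnamed probe sets, 1 from each run of numbers, gave nearly the same signals in each array, closer than any other of the 180 such pairs; it was singled out after the values were seen. The probe set 244924_at had 231, 161 and 84.98, and 244946_at had 218, 158 and 86.4. Their ratio was 1.06, 1.02 and 0.983, while each fell to its lowest signal in replicate 3, more than 2-fold under replicate 1. Whether both detect 1 sequence was not tested.

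The 3 arrays ordered the members alike, much as they ordered all plant probe sets. Across the 47 probe sets Spearman's rho between arrays was 0.954 for replicates 1 and 2, 0.954 for 1 and 3 and 0.935 for 2 and 3. Across all plant probe sets it was 0.945, 0.951 and 0.953 for the same pairs of arrays. These are correlations across probe sets that share the arrays, and they carry no p-value. The median SD of log2 signal was 0.44 for the members and 0.40 for all plant probe sets. The highest signal was at most 2-fold the lowest in 27 of the 47 (57.4%), against 63.5% of all plant probe sets.

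**Figure D2:**
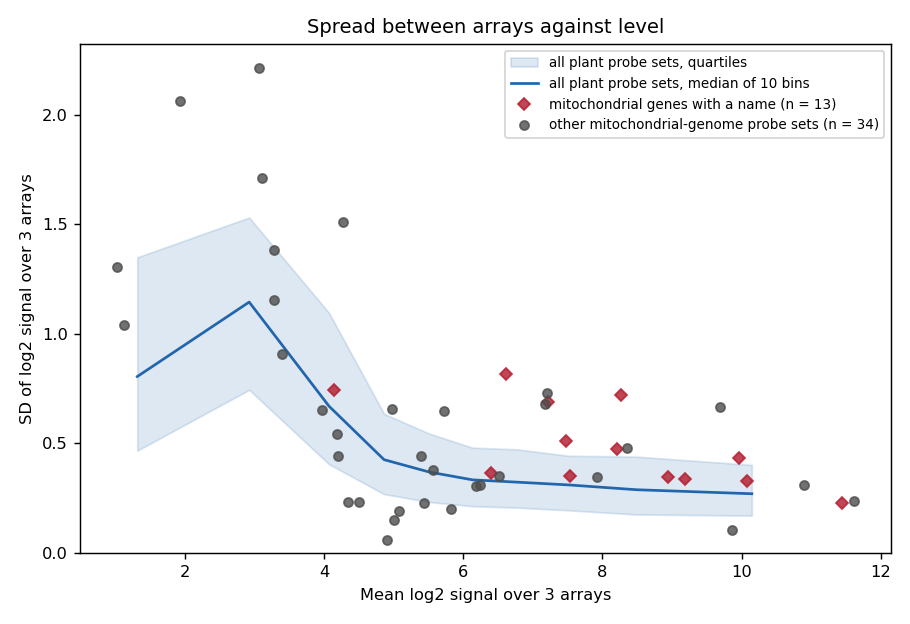
SD of log2 signal over the 3 arrays (vertical axis) against mean log2 signal (horizontal axis) for the 13 named genes (diamonds) and the other 34 members (circles). The line and band give the median and quartiles of all plant probe sets in 10 bins of level, and 12 of the 13 named genes lie above the median of their bin.

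The spread of the named genes was large for their level. In 12 of the 13 the SD exceeded the median SD of plant probe sets in the same one of 10 bins of mean level. Over all 47 members 31 did so. The same held for 9 of 11 probe sets of mitochondrial genes outside the 2 number runs and for 52 of 77 of the plastid genome. It also held for 8 of 11 paired with both a mitochondrial gene and a chromosome 2 locus. A large spread was thus not particular to the named genes. Without replicate 2 the median SD of the named genes was 0.29, lower than without replicate 1 (0.39) or without replicate 3 (0.50). That of the other 34 members was also lowest without replicate 2, at 0.32. It was 0.43 without replicate 1 and 0.35 without replicate 3. For all plant probe sets the same 3 medians were 0.34 without replicate 2, 0.32 without replicate 1 and 0.33 without replicate 3.

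Most named genes were lowest in replicate 2. That array held the lowest signal of 10 of the 13 named genes and the highest of none. Of all plant probe sets 37.0% were lowest and 28.0% highest there. The exceptions were nad4, nad7 and orfX, which were lowest in replicate 1. All 13 were lower in replicate 2 than in replicate 3, against 59.4% of all plant probe sets. The median deviation of the named genes from the mean of the 3 arrays was 0.22, -0.39 and 0.20 (log2) in replicates 1, 2 and 3. For all plant probe sets it was -0.04, -0.03 and 0.11.

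The other members gave different counts, and the difference was not tested. Of the 29 unnamed probe sets 8 (27.6%) were lowest in replicate 2, and over all 47 members 22 (46.8%) were. In the brightest of the 10 bins, 6 of the 8 members were lowest in replicate 2, against 22.0% of the plant probe sets there. Of the 4 named genes in that bin 2 were, so members other than the named genes were among the 6. Some unnamed members did follow the named genes. The signals of 244903_at were 1115, 484 and 1040, and those of 244906_at were 474, 250 and 296; both were chosen after their values were seen.

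**Figure D3:**
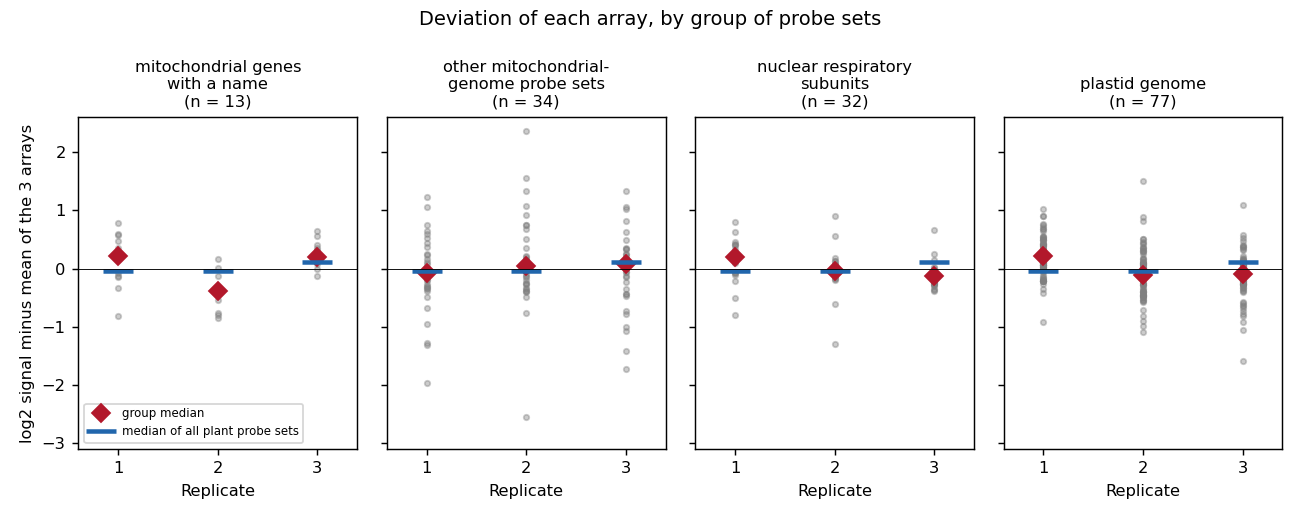
Deviation of log2 signal from the mean of the 3 arrays (vertical axis) in replicates 1, 2 and 3 for 4 groups of probe sets. Grey points are probe sets, diamonds group medians and blue bars the median of all plant probe sets. The median of the named mitochondrial genes is -0.39 in replicate 2, and that of the nuclear respiratory subunits -0.05.

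With 1 array per replicate, such differences between arrays carry no test. The 3′ to 5′ signal ratio of the actin, GAPDH and ubiquitin control transcripts, a sign of RNA quality, was largest in replicate 2 for 0 of 6 control pairs and smallest for 2 of 6. The hybridisation spikes were lowest in replicate 1 in 18 of 18 probe sets. Actin controls were lowest there in 5 of 6 and GAPDH controls in 4 of 5. Ubiquitin controls were lowest in replicate 3 in 5 of 5. The ratios of the 6 control pairs ran from 2.24 to 17.1 over the arrays, so each was above 1. They describe actin, GAPDH and ubiquitin only, and no such ratio was computed for mitochondrial transcripts. The part of RNA quality or of hybridisation in the low signals of replicate 2, or in the levels of any array, was not tested. In sorted cells measured in bulk, fewer cells of a type and less RNA per cell cannot be told apart.

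The arrays carry further probe sets for mitochondrial genes, outside the 2 number runs. Of 11 that the annotation pairs with nad1, nad2, nad5 or cox1, 10 lay above the reference level, against 69.1% of all plant probe sets. The median percentile of the 11 was 62.0%. Replicate 2 held the lowest signal of 6 of them (54.5%) and the highest of 5 (45.5%). Of all plant probe sets 37.0% were lowest and 28.0% highest there. Of the 11, 7 are probe sets of 1 gene, nad1. The 2 probe sets for nad5, another complex I membrane subunit, followed the same order of arrays as nad9. They had signals of 232, 121 and 221 (257337_at) and of 447, 182 and 415 (257338_s_at). The gene cox1, which encodes the catalytic subunit of complex IV, went the other way, with 3118, 4891 and 4158.

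The 7 probe sets for nad1 differed among themselves in the order of the arrays. Of these, 4 were lowest in replicate 2, 2 in replicate 3 and 1 in replicate 1. The shares over all plant probe sets were 37.0%, 24.2% and 38.8%. The geometric means of the 7 ran from 36.4 to 177, all above the reference level. The annotation pairs another 11 probe sets with a mitochondrial gene and a chromosome 2 locus at once. All 11 lay above the reference level, against 69.1% of all plant probe sets, with a median percentile of 84.0%. Of these 11, 4 (36.4%) were lowest in replicate 2, against 37.0% of all plant probe sets.

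**Figure D4:**
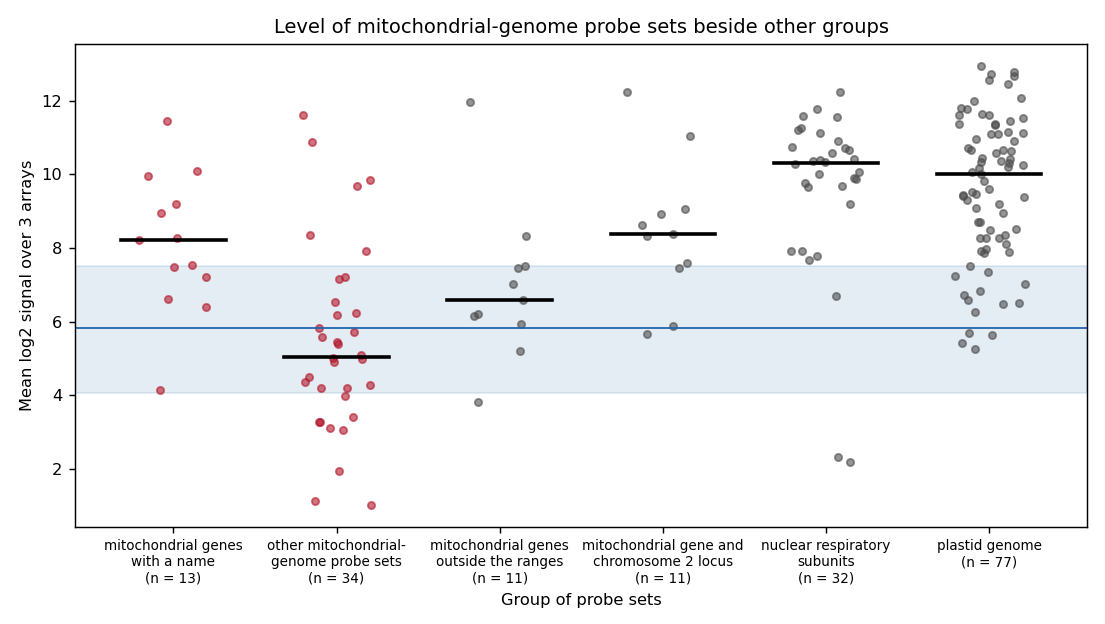
Mean log2 signal over the 3 arrays for the 13 named mitochondrial genes and the other 34 members (both red), and for 4 further groups (grey). Black bars are group medians, and the blue line and band are the median and quartiles of all plant probe sets. The named genes have a median percentile of 82.5% and the other members 37.7%, while the plastid genome reaches 94.5%.

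Most nuclear partners of the same complexes lay above the reference level too. Of 59 nuclear loci listed for complexes I to V of the respiratory chain, with ATP synthase counted as complex V, 31 could be matched, to 32 probe sets. Of these 30 lay above the reference level, against 69.1% of all plant probe sets, and 2 below. The median percentile of the 32 was 95.6%, beside 82.5% for the named mitochondrial genes. The sets differ in make-up. Only the nuclear one holds complexes II and III, and only the named one holds maturation, maturase and transporter genes. By complex, the nuclear median was 96.2% for complex I, 94.4% for complex IV and 95.8% for ATP synthase. The mitochondrial values were 83.0% for 5 complex I genes, 75.2% for cox2 and 74.5% for atp4. These cover the 2 number runs only. Outside them, cox1 of complex IV stood at 99.1%, above the nuclear median. The complex I genes there were lower than the nuclear ones, with medians of 56.4% for nad1, 79.4% for nad5 and 22.4% for nad2 (1 probe set). All 8 nuclear complex I probe sets passed, with geometric means from 956 to 2458. The brightest was AT5G11770, a subunit of the peripheral arm, at 2469 ± 281 (SD, n = 3). In complex III all 10 passed, led by AT3G10860, a small structural subunit, at 4879 ± 486 (SD, n = 3). In complex IV all 7 passed, led by AT4G37830 (subunit VIa) at 3528 ± 546 (SD, n = 3) and with AT5G61310 (subunit Vc) lowest at 103 ± 8.86 (SD, n = 3). Both matched ATP synthase subunits passed.

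Complex II, succinate dehydrogenase, is encoded by the nucleus in Arabidopsis and is the one complex with members below the reference level. SDH1-2, the second flavoprotein gene, had signals of 3.17, 8.47 and 3.44, while SDH1-1 had 540, 1381 and 1113. For the iron-sulphur subunit SDH2-1 the probe sets disagreed, with 1251, 1537 and 1303 (257713_at) against 7.74, 2.03 and 7.94 (257742_at). The cytochrome c genes CYTC-1 and CYTC-2, which carry electrons between complexes III and IV, averaged 4762 ± 725 and 619 ± 186 (SD, n = 3). AT5G15700, an organellar RNA polymerase that transcribes mitochondrial genes, and AT5G14580, a polynucleotide phosphorylase that degrades mitochondrial RNA, passed in neither direction (adjusted p = 0.0546 and 0.611 in limma's test).

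The nuclear subunits were highest in replicate 1 in 24 of 32 probe sets, against 29.0% of all plant probe sets, and lowest in replicate 3 in 18, against 24.2%. Most of them are bright, and bright probe sets have shares of their own. In the brightest of the 10 bins, 20 of 25 nuclear subunits were highest in replicate 1, against 37.3% of the plant probe sets there, and 16 were lowest in replicate 3, against 41.9%. Replicate 2 was lowest in 4 of these 25, against 22.0% there. The 77 plastid-genome probe sets were highest in replicate 1 in 46 cases (59.7%) and lowest in replicate 2 in 36 (46.8%). The shares over all plant probe sets were 29.0% and 37.0%. In the brightest bin 27 of 48 were highest in replicate 1 and 19 lowest in replicate 2, against 37.3% and 22.0% there. All 77 plastid probe sets lay above the reference level, against 69.1% of all plant probe sets. The plastid median signal was 1041, beside 297 for the named mitochondrial genes and 32.9 for the other members. No test of these differences was made, since all probe sets of an array share 1 sample.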

How the data were processed

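The authors deposited 1 linear intensity per probe set and array. Per the submitters' processing notes these come from MAS5, which combines matched and mismatched probes; neither its version nor its scaling target nor detection calls were given in the sources used here. From these values log2 signals were computed. The difference from the reference level was fitted over 22746 plant probe sets by an intercept-only lmFit and eBayes (limma 3.58.1, R 4.3.3; Benjamini-Hochberg adjustment), after trials on simulated data. Levels, ranks, SDs and deviations by array were described without a test, in Python 3.11.15. A probe annotation table paired 13513 plant probe sets with 1 gene and 503 with several, and left 8730 unnamed; loci were matched through RefSeq (TAIR10.1). Of 145 listed loci, 73 were nuclear ones in 9 lists, of which 35 matched; alternative oxidases and porins had none, and neither had the suberin, phloem and stele, xylem and root cap markers. The selection rule uses no signal, but members and lists were chosen with earlier results of these data known. Text naming covered every member paired with 1 mitochondrial gene of named function, the locus given by the selection rule, and of the rest the 3 highest, 3 lowest and 3 most variable, and of nuclear lists some of the extremes. Alternatives were other reference levels, quantile normalization, a pseudocount of 16, _at probe sets only, a trend in eBayes and each array left out.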

Additional observations from a re-analysis of the deposited data

How the results depend on the processing

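The count of 34 members above the reference level ran from 24 to 37 over the other references, scalings and fits. The 24 came with the highest Bacillus probe set, with 51.2% of all plant probe sets above. With 1 array left out it ran from 32 to 33. For _at probe sets it was 23 of 34, against 69.8% of plant _at probe sets. Of the 12 members paired with 1 mitochondrial gene, 11 lay above the reference level. Members below it, 2, became 7 against the highest Bacillus probe set, 2 to 4 with 1 array left out (4 without replicate 2), and 0 among those 12. The median percentile, 50.0%, was 82.8% for those 12 and ran from 47.8% to 53.1% with 1 array left out. The median SD, 0.44, became 0.325 with the pseudocount, which shrinks low signals by construction, and 0.31 to 0.42 with 1 array left out (0.31 without replicate 2); it exceeded that of plant probe sets of like level by 0.058. The median deviation of all members, -0.06 in replicate 1 and -0.14 in replicate 2, was 0.24 and -0.37 for the 12. The count lowest in replicate 2 was 22 of 47, against 37.0% of all plant probe sets, and 9 of the 12. For _at probe sets it was 13 of 34 (38.2%), near the 37.2% of plant _at probe sets. For _s_at probe sets it was 9 of 13 (69.2%), against 32.4% of plant _s_at probe sets. Of the 9 named genes on _at probe sets 7 were lowest there. For the 13 named genes the counts of 12 above, 10 lowest in replicate 2 and 13 lower there than in replicate 3 were the same after quantile normalization and with the pseudocount. Counts by array were examined after seeing the data. Of 21 named probe sets, 3 changed in 6 of 210 values: 244917_at passed as below at other percentiles, against the highest Bacillus probe set and without replicate 2, and 244954_s_at and 244907_at against the highest Bacillus probe set. No paired analysis was possible because only 1 group was measured. Low signals limit the values of 244914_at, 244908_at and others near the reference level.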
